A study of Mus musculus with 6 samples.

Results

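In all, 10 genes of protein ADP-ribosylation were followed: Parp1, Parp2 and Parp3, whose products act at DNA breaks (the repair members), and Parp8, Parp9, Parp10, Parp11, Parp12, Parp14 and Dtx3l (the other members). They were chosen by name, with earlier results of these data known, as 10 of 19938 tested genes. For each of them the platform annotation held 1 probe set that names it alone and 0 that name it with other genes, so no choice between probe sets had to be made. The series compares cultured stromal cells of the bone marrow, which can form bone or fat cells, of 2 genotypes: wild type (WT, 3 arrays) and knockout of miR-188 (KO188, 3 arrays), a microRNA named in the series title. All mice were C57BL/6 and 6 months old, and both groups of cells were grown under osteogenic induction, that is with dexamethasone (100 nM), the phosphate donor beta-glycerophosphate (10 mM) and ascorbate-2-phosphate (0.05 mM). Sex, days in culture, how the knockout was made and whether mice were pooled were not stated in the labels.

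Enzymes of the PARP family take NAD and attach its ADP-ribose to proteins or nucleic acids, either as a single unit or as a chain. Parp1 and Parp2 build chains at DNA breaks and so call repair factors to them, while most other family members add single units. Several of the latter, with the Parp9 partner Dtx3l, a ubiquitin ligase, are known as interferon-stimulated genes that act in antiviral defence, whereas Parp1 and Parp2 are made in most dividing cells.

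Promoter windows of 3 members that rose in KO188 are shown first, since interferon acts on its target genes through short promoter elements. RefSeq windows on GRCm38.p6, from 250 bases before to 50 bases after a gene's start, were at hand for 7 of the 10 members, 8 windows in all, and not for Parp9, Parp10 and Parp14. Both strands were searched for the core of the interferon-stimulated response element, GAAANNGAAA, and for the gamma-activated site, TTCNNNGAA, which reads the same on both strands. A match was found in 1 of the 8 windows, that of the upstream start of Parp11, which held both motifs. The first begins 44 bases before the start and is read here from the other strand; the second begins 37 bases before the start and overlaps it. Both are in capitals in the Parp11 window, at chr6:127446590-127446889 on the plus strand. The Dtx3l window, at chr16:35938978-35939277 on the minus strand, is shown because Dtx3l and Parp9 are known to share a bidirectional promoter, and the Parp3 window, at chr9:106476900-106477199 on the minus strand, because Parp3 was the repair member that rose.
Parp11: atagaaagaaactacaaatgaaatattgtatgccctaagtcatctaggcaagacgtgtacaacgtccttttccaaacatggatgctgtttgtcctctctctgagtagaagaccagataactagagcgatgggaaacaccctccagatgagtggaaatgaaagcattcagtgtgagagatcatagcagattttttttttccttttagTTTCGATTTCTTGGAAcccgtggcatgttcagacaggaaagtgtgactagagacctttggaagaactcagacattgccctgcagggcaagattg
Dtx3l: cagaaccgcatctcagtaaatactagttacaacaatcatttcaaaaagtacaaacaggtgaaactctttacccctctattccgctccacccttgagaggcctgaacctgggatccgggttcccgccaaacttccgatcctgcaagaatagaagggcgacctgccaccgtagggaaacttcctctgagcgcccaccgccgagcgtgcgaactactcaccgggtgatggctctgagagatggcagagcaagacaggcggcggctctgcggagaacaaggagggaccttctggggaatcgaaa
Parp3: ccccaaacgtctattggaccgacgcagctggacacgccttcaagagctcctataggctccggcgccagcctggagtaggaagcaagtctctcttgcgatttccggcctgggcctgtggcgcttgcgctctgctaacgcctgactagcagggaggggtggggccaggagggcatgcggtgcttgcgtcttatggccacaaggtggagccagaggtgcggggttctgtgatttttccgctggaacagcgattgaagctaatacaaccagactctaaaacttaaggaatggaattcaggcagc
Of all 32851 windows of this length, 3.44% held the first motif and 8.3% the second. A match is a description of letters and not of a bound site, and a window without a match shows only that these letters are not in it.

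Each array gave 1 log2 value per probe set for 35556 probe sets, with array medians from 7.43 to 7.50. Across tested genes, arrays of 1 group correlated at 0.9988 to 0.9993 and arrays of different groups at 0.9909 to 0.9912. The median SD of a gene was 0.039 in WT and 0.048 in KO188. The samples are labelled biological replicates without stating separate mice or cultures, so the p-values measure only the spread between these samples, and 3 arrays a group bound the precision. With no batch stated for any sample, genotype and any batch that went with it cannot be told apart. The probe set of Mir188, the targeted gene, stood at 7.15 ± 0.01 (SD, n = 3) in WT and 7.08 ± 0.05 in KO188, and the change of -0.06 did not pass (limma adjusted p = 0.24). It passed with the arrays centred on their medians (adjusted p = 0.040) or quantile normalized (0.029). Which part of the locus it reads is not given, so it checks nothing. To show where unexpressed genes tend to read, 95% of olfactory and vomeronasal receptor genes had 6-array means up to 6.72 (the receptor guide), and all 10 members lay above it in both groups. Over all genes 2643 were higher and 3294 lower at a limma adjusted p of 0.05, and 2007 higher and 4505 lower with each array centred on its median.

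All 10 members passed limma's test across all tested genes, of which 29.8% were called. In 8 members every KO188 array lay above every WT array, and in 2 every one lay below, as was so for 18.8% and 22.7% of tested genes (41.5% together). The other members all rose in KO188, 7 of 7 against 13.3% of tested genes called higher, with a median log2 change of 2.27 against -0.01 over all tested genes. Of these 7, 6 rose by at least 1 on the log2 scale, as 1.1% of tested genes did. The repair members did not move as 1 group: Parp1 and Parp2 fell, 2 of 3 against 16.5% of tested genes called lower, and Parp3 rose. The repair members, often called housekeeping genes, thus changed in both directions. In RNA from whole cultures, more cells expressing a gene and more RNA per cell cannot be told apart.

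**Figure D1:**
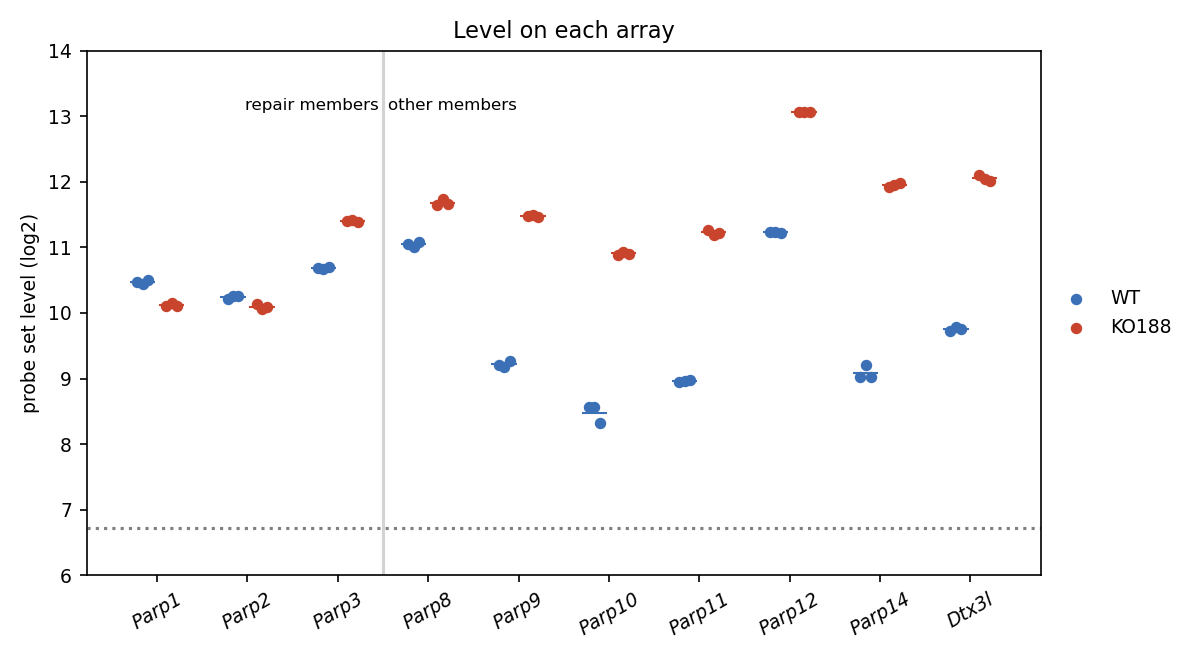
The plot of levels by array gives the log2 probe set level (vertical axis) of each member on the 3 WT (blue) and 3 KO188 (red) arrays, with a short line at each group mean; the dotted line marks the receptor guide of 6.72. Red points lie above blue points for 8 members and below them for Parp1 and Parp2; genes have their own probes, so levels are not to be compared between them.

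Parp9 and Dtx3l encode a pair of proteins that work as a complex, a macrodomain protein that reads ADP-ribose and the ubiquitin ligase bound to it. Parp9 stood at 9.21, 9.17 and 9.27 on the WT arrays and at 11.48, 11.49 and 11.46 on the KO188 arrays. The lowest KO188 array lay far above the highest WT array, and Parp9 was 4.80-fold higher in KO188 (95% interval 4.55 to 5.06; log2 change 2.26, SE 0.032, limma adjusted p = 7.5e-08). Dtx3l stood at 9.73, 9.78 and 9.76 in WT and at 12.10, 12.04 and 12.02 in KO188. The groups were again far apart, and Dtx3l was 4.92-fold higher in KO188 (95% interval 4.66 to 5.20; log2 change 2.30, SE 0.033, adjusted p = 7.7e-08). The intervals of this pair overlap; a difference between their changes was not tested.

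Parp14, a large macrodomain PARP known as a partner of STAT6 in interleukin-4 signalling, had the largest change of the 10 members. Its WT values were 9.02, 9.21 and 9.03 and its KO188 values 11.92, 11.95 and 11.99. WT replicate 2 was the highest of its group and still lay well below every KO188 array. Parp14 was 7.29-fold higher in KO188 (95% interval 6.64 to 8.02; log2 change 2.87, SE 0.057, adjusted p = 3.1e-07), the 31st largest rise of the 19938 tested genes.

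Parp10, which adds single ADP-ribose units and was first found as a partner of Myc, showed the widest spread among WT arrays of the 10 members. It stood at 8.56, 8.56 and 8.31 in WT and at 10.89, 10.93 and 10.91 in KO188, with WT replicate 3 the low one. It was 5.39-fold higher in KO188 (95% interval 4.80 to 6.05; log2 change 2.43, SE 0.069, adjusted p = 1.9e-06), and without WT replicate 3 the log2 change was 2.35. Parp11, a nuclear envelope protein that also adds single units, stood at 8.95, 8.96 and 8.97 in WT and at 11.27, 11.19 and 11.22 in KO188. The groups did not overlap, and Parp11 was 4.83-fold higher (95% interval 4.60 to 5.07, log2 change 2.27, SE 0.029, adjusted p = 4.8e-08).

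Parp12, a zinc finger PARP that restricts RNA viruses, stood at 11.24, 11.24 and 11.22 in WT and at 13.07, 13.07 and 13.07 in KO188. Arrays of a group were nearly alike, and Parp12 was 3.58-fold higher in KO188 (95% interval 3.45 to 3.72; log2 change 1.84, SE 0.023, adjusted p = 4.8e-08). Parp8, a less studied member that adds single units, rose least of the 7. It stood at 11.05, 11.01 and 11.08 in WT and at 11.65, 11.73 and 11.67 in KO188. The groups did not overlap, but the rise was only 1.56-fold (95% interval 1.47 to 1.65; log2 change 0.64, SE 0.034, adjusted p = 3.1e-05). Its interval lies below those of the other 6, while its log2 level in WT was well above the receptor guide.

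Among the repair members, Parp1, the main builder of poly(ADP-ribose) at DNA breaks, stood at 10.47, 10.44 and 10.50 in WT and at 10.11, 10.15 and 10.10 in KO188. Every KO188 array lay below every WT array, and Parp1 fell by 0.35 on the log2 scale (SE 0.029, adjusted p = 2.3e-04), a KO188 level 0.784 times that of WT (95% interval 0.747 to 0.824). Parp2, the second enzyme with this activity, stood at 10.21, 10.26 and 10.26 in WT and at 10.14, 10.06 and 10.09 in KO188. The groups lay close without overlap, and Parp2 fell by 0.15 (SE 0.031, adjusted p = 0.012), to 0.903 times the WT level (95% interval 0.857 to 0.951). Parp3, which attaches ADP-ribose at double-strand breaks and aids end joining, went the other way. It stood at 10.69, 10.67 and 10.70 in WT and at 11.41, 11.42 and 11.39 in KO188, a 1.64-fold rise (95% interval 1.58 to 1.71; log2 change 0.72, SE 0.025, adjusted p = 4.8e-06). The rise of Parp3 was close in size to that of Parp8, with overlapping intervals, and it held the 338th place of all tested genes ordered from the largest rise, against the 394th for Parp8 and the 19246th for Parp1. A difference between their changes was not tested.

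The family outside the 10 members was mixed. Of 7 further PARP genes 6 were measured, and 2 rose, 1 fell and 3 did not pass, with a median log2 change of 0.06. Of all tested genes 13.3% were called higher and 16.5% lower. Zc3hav1, the antiviral zinc finger protein that binds viral RNA, rose from 10.25, 10.22 and 10.33 to 11.08, 11.06 and 10.99 (log2 change 0.77, SE 0.040, limma adjusted p = 2.9e-05). Tiparp, a target of the aryl hydrocarbon receptor, rose by 0.60 (SE 0.043, adjusted p = 1.2e-04). Parp16, an enzyme of the endoplasmic reticulum membrane, fell by 0.29 (SE 0.034, adjusted p = 9.7e-04). The tankyrases Tnks (0.06, 95% interval -0.00 to 0.13) and Tnks2 (0.00, -0.05 to 0.06), which act on telomeres and Wnt signalling, and Parp6 (0.06, -0.01 to 0.13) did not pass. The largest rise of these genes, that of Zc3hav1, lay above those of Parp3 and Parp8 and below those of the other 6 rising members. The Zc3hav1 interval overlaps those of Parp3 and Parp8, and a difference between their changes was not tested.

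Of the 4 Deltex genes related to Dtx3l, 2 rose, 1 fell and 1 did not pass, and all changes were small beside that of Dtx3l. These counts stand beside 13.3% of all tested genes called higher and 16.5% called lower. Dtx2 rose by 0.29 (limma adjusted p = 0.0034) and Dtx4 fell by 0.40 (adjusted p = 6.1e-04). Dtx3 rose by 0.18 (adjusted p = 0.038), but that call ended with median centring (0.069), quantile normalization (0.090) and without each array other than WT replicate 3 (0.062 to 0.11). Dtx1 changed by -0.06 (95% interval -0.18 to 0.06).

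**Figure D2:**
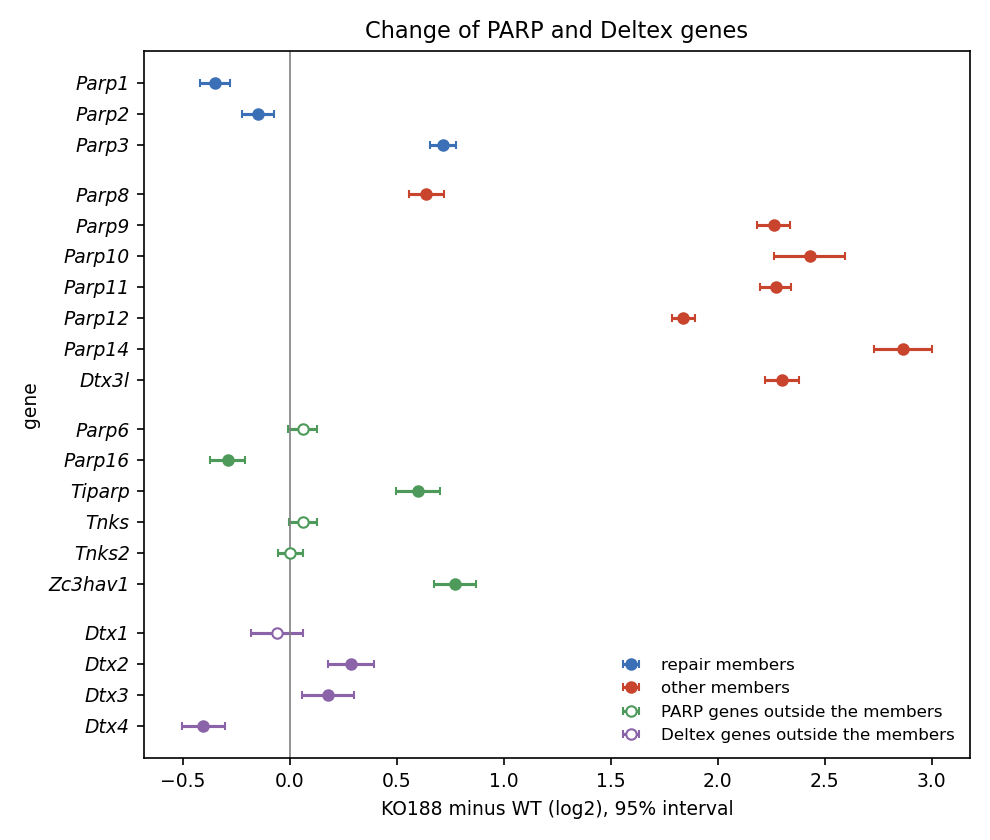
The plot of changes gives the KO188 minus WT log2 difference (horizontal axis) with its 95% interval for the 10 members and for measured PARP and Deltex genes outside them; filled points passed limma's test and open points did not. The 6 members at 1.84 to 2.87 stand to the right of every other gene drawn.

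Parp14, Dtx3l and Parp9 form a block of neighbours among tested genes on chromosome 16, and the gene models of Dtx3l and Parp9 overlap at one end in RefSeq's GRCm38.p6. Which bases the probe sets read is not given, so whether either of them reads the overlap was not checked. Of the 5 tested genes on either side of this block, 0 rose by limma's test (0 at an unadjusted p under 0.05), 3 fell and 7 did not pass, with changes from -0.23 to 0.08. The next genes on either side were Hspbap1, at 0.08 (95% interval -0.04 to 0.21), and Kpna1, a nuclear import gene, at -0.02 (95% interval -0.10 to 0.07). The 3 that fell were Fam162a (-0.23), Slc49a4 (-0.17) and Pdia5 (-0.13), and the Pdia5 call was lost without WT replicate 3 (adjusted p = 0.052) or KO188 replicate 3 (0.053). Ccdc58 passed without KO188 replicate 1 only (adjusted p = 0.010). No rise was called among these 10 flanking genes, where 13.3% of all tested genes were called higher and 16.5% lower. Genes further out were not looked at.

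**Figure D3:**
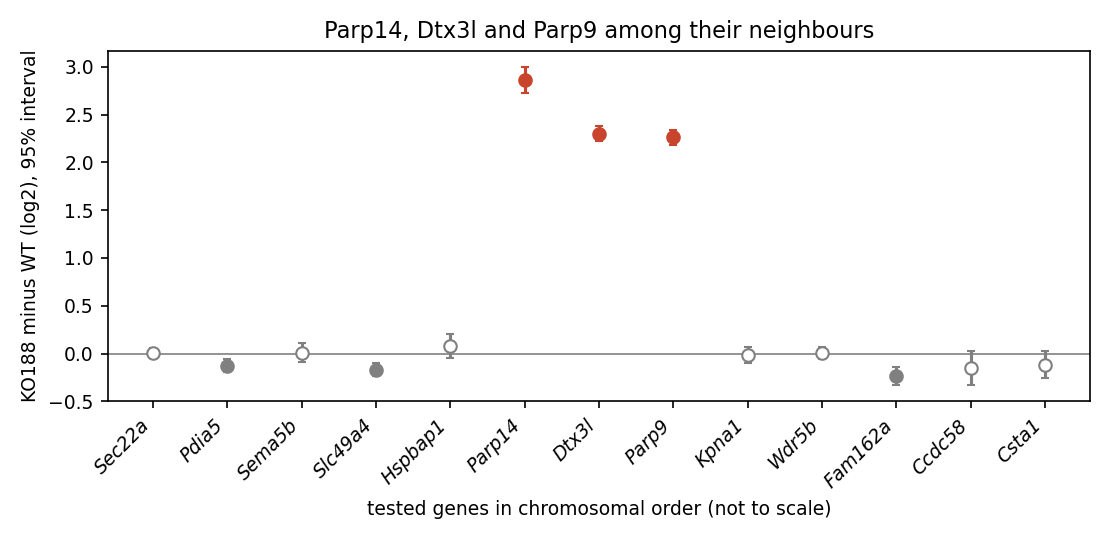
The neighbourhood plot gives the KO188 minus WT log2 difference with its 95% interval (vertical axis) for 13 tested genes in chromosomal order, members in red and flanking genes in grey, filled where limma's test was passed. Parp14, Dtx3l and Parp9 lie between 2.26 and 2.87 while the 10 flanking genes lie between -0.23 and 0.08.

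Genes whose profile over the 6 arrays lay nearest to that of a member were found by the root mean square distance of log2 values, each taken relative to its own WT mean. Nearest to Dtx3l were Parp11 (distance 0.030), Ifih1 (0.037) and Psmb8 (0.044). Nearest to Parp9 were Parp11 (0.035), Ifih1 (0.037) and Ifit3 (0.038). Ifih1 encodes a sensor of double-stranded RNA, Psmb8 an immunoproteasome subunit and Ifit3 an interferon-induced antiviral protein. Parp14 had Gbp7 (0.046), Tap1 (0.11) and Phf11d (0.11) nearest, and Parp1 had Ube2s (0.012), Gamt (0.015) and Ptprk (0.017). The measure is a description over 6 arrays in which the group difference dominates.

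Genes of interferon signalling were read from a list of 13 measured ligands, receptors, kinases and factors. Of these 6 rose, 2 fell and 5 did not pass (median 0.07), where 13.3% of all tested genes were called higher and 16.5% lower. RNA levels of these genes do not measure the signal itself, and its part in the members' rise was not tested. The factors rose: Irf7, the master regulator of type I interferon genes, from 8.67, 8.57 and 8.69 in WT to 12.23, 12.22 and 12.24 in KO188 (log2 change 3.59, SE 0.037, limma adjusted p = 2.9e-08), Stat2 by 2.41 (adjusted p = 2.9e-07), its partner Irf9 by 1.39 (5.0e-07) and Irf1 by 1.01 (9.3e-07). The size of the Irf1 rise depended on the processing, from 0.70 to 1.02 over the alternatives, though it passed in each. The kinase gene Jak2 rose by 0.77 and Ifnb1, the gene of interferon beta, by 1.16, from 6.28, 6.31 and 6.36 to 7.46, 7.53 and 7.44; its WT level lay under the receptor guide of 6.72, so its rise is only roughly sized. The receptor genes Ifnar1 (-0.14) and Ifngr2 (-0.15) fell, the former not when WT replicate 1 (adjusted p = 0.13) or 3 (0.12) or KO188 replicate 2 or 3 (0.11 each) was left out. Ifng, the gene of interferon gamma, changed by -0.09 (95% interval -0.21 to 0.03). The Stat2 rise lay within the range of those of Dtx3l, Parp9, Parp10, Parp11 and Parp14.

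Genes of DNA break and base repair, the setting in which Parp1, Parp2 and Parp3 act, were lower where they passed. Of 17 measured, 10 fell, against 16.5% of tested genes called lower, none rose by limma's test (0 at an unadjusted p under 0.05) and 7 did not pass, with a median of -0.16. The count of 10 became 7 without WT replicate 1 and 13 with quantile normalization, the ends of its range over the alternatives. Xrcc4, a scaffold of end joining, fell by 0.66 (SE 0.073, limma adjusted p = 8.1e-04), Xrcc6, the Ku70 gene, by 0.33 (0.0023), and Lig4, the ligase of end joining, by 0.23 (0.0018). Tdp1, which clears blocked DNA ends, fell by 0.37 (0.0015). Hpf1, the cofactor that directs Parp1 and Parp2 to serine, fell by 0.16 (adjusted p = 0.037), a call lost when WT replicate 1 (0.092) or 3 (0.10) or KO188 replicate 1 (0.10) or 2 (0.097) was left out. Lig3, the ligase of single-strand break repair, fell by 0.13 (0.017), not so without WT replicate 1 (0.063) or WT replicate 2 (0.058), and its scaffold Xrcc1 changed by -0.02 (95% interval -0.09 to 0.05). The fall of Parp1 (-0.35) was thus within the range of this list, while the rise of Parp3 (0.72) lay above its highest member, at 0.07.

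Of 8 measured genes that remove ADP-ribose, 1 fell and 7 did not pass, where 29.8% of all tested genes were called. The list median was -0.04. The 1 was Macrod1, a macrodomain hydrolase gene, at -0.18 (limma adjusted p = 0.013), a call lost without WT replicate 3 (0.053). Parg, the main hydrolase of chains, changed by 0.08 (95% interval -0.02 to 0.18) and passed without KO188 replicate 3 only (adjusted p = 0.035). Of 14 measured genes of NAD supply and use, 2 rose, 1 fell and 11 did not pass, with a median of 0.02. These counts too stand beside 29.8% of all tested genes called. Nampt, the rate-limiting enzyme of NAD salvage, rose from 11.30, 11.26 and 11.27 to 11.91, 11.90 and 11.90 (log2 change 0.62, SE 0.024; adjusted p = 8.3e-06 by limma). Nmnat1, the nuclear enzyme of the last step, rose by 0.32 (0.0042), and the NAD kinase gene Nadk fell by 0.30 (1.7e-04). Cd38, an NAD-consuming enzyme gene, was not analysed here.

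**Figure D4:**
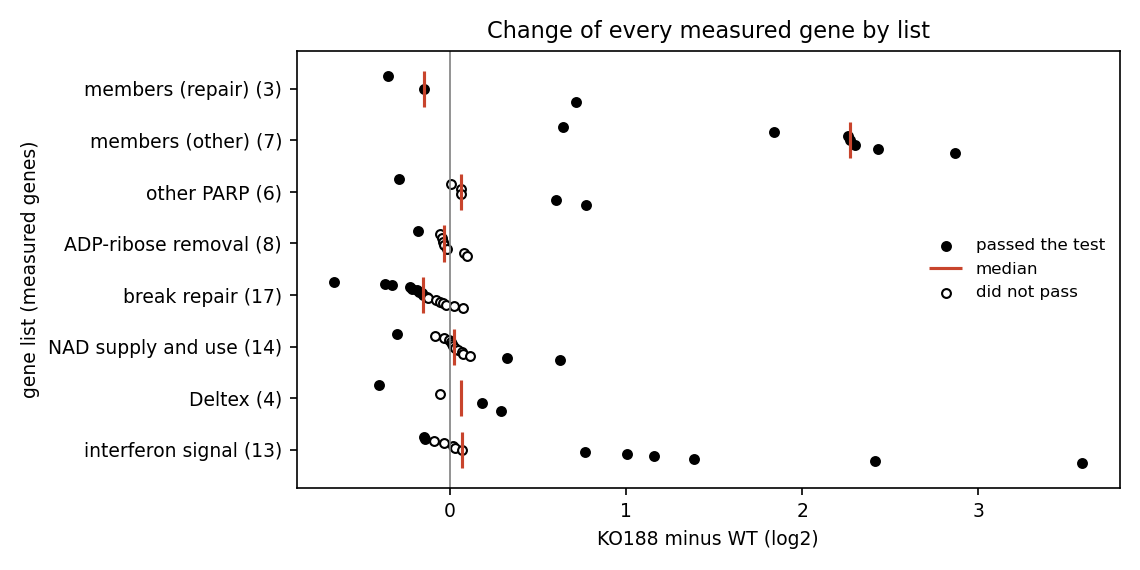
The plot by list gives the KO188 minus WT log2 difference (horizontal axis) of every measured gene of each list (vertical axis, with the number measured), filled where limma's test was passed, and the list median as a red line. The other members have a median of 2.27, the break repair list one of -0.16, and the remaining lists outside the members medians from -0.04 to 0.07.

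The labelled cell type and other marrow cells were read from their markers. Of 11 measured stromal and osteoblast markers 8 rose, among them Alpl (2.08) and Pdgfra (0.87), against 13.3% of tested genes called higher. Runx2 and Bglap, also on this list, had no probe set that names them alone and were not measured. The list's mean log2 level lay between 9.29 and 9.32 on WT arrays and between 9.72 and 9.73 on KO188 arrays. Of the 8, Sp7 (0.36) stood at 6.41 in WT, under the receptor guide. Its call was lost without any 1 WT array or KO188 replicate 3 (limma adjusted p = 0.052 to 0.070). Thy1, Lepr and Ibsp did not pass, the last 2 at levels under the guide. The macrophage list had mean levels of 6.58 to 6.61 in WT and 6.65 to 6.71 in KO188, but a median log2 change of -0.03. Of its 11 members 7, with Ptprc, Csf1r and Adgre1, were at or below the receptor guide of 6.72 and 1 rose, Mpeg1 (1.32), itself known to respond to interferon; its WT level of 5.72 lay under the guide, so the rise is only roughly sized. Cd68, above the guide, stood 0.15 higher in KO188 without overlap of the arrays (adjusted p = 0.086) and passed with the dimmer genes left out (0.026). Cd14 (-0.27, adjusted p = 0.060) passed without KO188 replicate 1 (0.024), with median centring (0.025) and with quantile normalization (0.026), and Itgam (-0.08, adjusted p = 0.069) passed with median centring (0.013) and quantile normalization (0.016). The count of this list was then 2 without KO188 replicate 1 and 3 with either scaling. It was also 2 with a trend in limma's variance prior (Cd14, adjusted p = 0.040). The plasmacytoid dendritic list had 1 of 7 rising, Bst2 (2.39), an interferon-stimulated gene of many cell types. Mean levels of this list were 7.72 to 7.75 in WT and 7.99 to 8.08 in KO188, but its median log2 change was -0.03. Siglech, the list's most specific marker, changed by 0.06 (limma adjusted p = 0.37). Of 7 lymphocyte markers 0 passed limma's test (1 at an unadjusted p under 0.05), and 1 did with median centring, with quantile normalization, without KO188 replicate 2 (Ncr1, adjusted p = 0.018) and without KO188 replicate 3 (Cd79a, 0.022), at mean levels of 5.99 to 6.05 in WT and 5.86 to 6.05 in KO188. Of 6 granulocyte markers 0 passed (0 unadjusted), at 5.97 to 5.98 in WT and 5.95 to 6.05 in KO188. The endothelial list (6.35 to 6.38 in WT, 6.36 to 6.40 in KO188) had 1 of 6 rising, Kdr (0.24, from 6.40 to 6.63, under the guide), which failed with any 1 WT array or KO188 replicate 1 left out (adjusted p = 0.051 to 0.079), and of 3 erythroid and megakaryocyte markers 0 passed (0 unadjusted), at 6.76 to 6.82 in WT and 6.72 to 6.88 in KO188. Of 6 adipocyte markers 1 rose, Lpl (0.54), and 2 fell, Pparg (-1.86) and Fabp4 (-0.33), at 7.58 to 7.59 in WT and 7.28 to 7.36 in KO188. The part of any change in cell makeup in the members' rise was not tested.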

How the data were processed

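Bone marrow stromal cells of 3 WT and 3 KO188 samples were each read on 1 Affymetrix array. The authors' deposited values are log2 probe set values; Affymetrix Expression Console, Partek and RMA appear, unordered, in the submitters' processing notes. Versions and genome build were not stated. RMA values are compressed for dim genes, so changes of dim genes are understated. Of 35556 probe sets 21789 had 1 gene symbol in the platform annotation, 1621 several (left unnamed) and 12146 were not listed. The probe set with the highest 6-array mean was used per gene, giving 19938 tested genes, dim ones included; the members' identifiers matched RefSeq for 10 of 10. Limma 3.58.1 in R 4.3.3 (lmFit, eBayes without trend, all 6 arrays, no covariate) compared KO188 with WT, two-sided. P-values were adjusted by Benjamini-Hochberg over the 19938 genes, and 0.05 was the threshold. The fit was tested on simulated data. Intervals are 95% intervals of that fit. The receptor guide, a rough level for genes not expressed, is the 95th percentile of the 6-array means of 1190 chemosensory receptor genes (Olfr, Vmn1r, Vmn2r).

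The members, lists and tests were chosen with earlier results of these data known, so no test was made over the members as a set. Named genes are the members, up to 4 called genes of each list with the lowest p, Stat2 and Irf9, the nearest profiles (3 per gene, predicted genes skipped) and the flanking genes; Jak2, Ifnb1, the receptor genes, Ifng, Hpf1, Lig3, Xrcc1, Parg and other genes named without a call were singled out after their values were seen. Replicate numbers are shared between groups, but deviations from the group means correlated at 0.02, 0.01 and -0.03 for the 3 numbers, so the numbers do not pair the samples. Alternatives were array scaling, a filter on dim genes, handling of several probe sets, a variance trend, a replicate block and leaving out each array. Python 3.11.15 with matplotlib 3.10.9 drew the figures.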

Additional observations from a re-analysis of the deposited data

How the results depend on the processing

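Over 13 alternatives none of the 130 member values changed direction, and 9 of the 10 members passed in each. The exception was Parp2 with the replicate number as a block (adjusted p = 0.051), which left 9 members and 5019 of all genes past the threshold. The same block also ended the calls of Dtx3 (0.073), Pdia5 (0.058) and Kdr (0.058), and it brought the macrophage marker Cd68 past the threshold (0.041). Of the 6 arrays 3 correlated best with their own number in the other group. Adjusted p ran over the alternatives from 0.0023 to 0.051 for Parp2 and from 1.2e-05 to 0.0035 for Parp1. The count of the ADP-ribose removal list was 2 with quantile normalization and ran from 0 to 2 with 1 array left out, against 1 on the deposited values. The macrophage count, 1 on the deposited values, ran up to 3, the lymphocyte count, 0, up to 1, and the endothelial count, 1, from 0 to 2. With median centring the share of higher calls over all genes was 30.8% in place of 44.5%. For 130 other list, flanking and targeted genes, 37 of 1628 values lost a call and 33 gained one, with 0 reversed; the cause was not tested. The number of arrays and the dimness of a probe set limit what small changes can show.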
